A study of Homo sapiens with 6 samples.

Results

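The genes described here encode the respiratory chain complexes I to IV and the ATP synthase, also called complex V. Members were all rows whose symbol begins with NDUF, UQCR, ATP5 or COX4 to COX8, is SDHA, SDHB, SDHC or SDHD, or begins with MT-ND, MT-CO, MT-CYB or MT-ATP. The rule found 111 of 24872 rows, of which 13 are encoded by mitochondrial DNA (mtDNA) and 98 by nuclear genes, and it used no measured value. By complex, the nuclear rows fall into 46 for complex I, 4 for complex II, 9 for complex III, 19 for complex IV and 20 for complex V. The mtDNA rows fall into 7 for complex I, 1 for complex III, 3 for complex IV and 2 for complex V. NDUFA4 carries a complex I name and is counted here with complex IV, where its protein is now known to sit, and so is its paralogue NDUFA4L2.

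RNA came from 22RV1, an established human line of castration-resistant prostate cancer, on day 2, in 6 libraries. The groups were miR-106a-5p cells (called mimics), cells made to overexpress MAGI2-AS3, a long noncoding RNA (OE) and a control called NC, with 2 libraries each. The labels do not say what NC cells received, and the treatment text speaks of plasmids where the titles speak of mimics, so the form of the microRNA is uncertain. The labels also do not say that replicates are separate cultures, so a p-value here covers no more than the variation among libraries, and that may be technical variation. MAGI2-AS3 was not analysed here. The unit is FPKM, in which fragments are divided by transcript length and by the total of the library. The read depth behind them is unknown, and the FPKM of a library summed to 402526 to 429262.

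The respiratory chain passes electrons from NADH and succinate to oxygen and pumps protons across the inner mitochondrial membrane, and complex V uses the return of those protons to make ATP. Complexes I, III, IV and V are built from both genomes: the mtDNA supplies hydrophobic core subunits, and nuclear genes supply the remaining core and all accessory subunits. Complex II is wholly nuclear. The mtDNA is transcribed inside the organelle by its own polymerase into long precursors from both strands, so its messengers are made apart from the nuclear ones that they must match.

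The tissue label was checked against markers. All 10 prostate luminal markers were measured, among them HOXB13 at 74.8 to 104 FPKM. The 8 leukocyte markers summed to at most 0.63 FPKM and the 6 endothelial markers to at most 0.383 FPKM in any library. Fibroblast markers summed to 179.6 and 108.3 FPKM in mimics, 90.6 and 86.6 in OE and 89.6 and 86.0 in NC, of which LUM gave 172 and 103 in mimics, 87.4 and 83.3 in OE and 86.0 and 82.1 in NC, while COL1A2 and PDGFRA stayed at or under 0.01 FPKM. COL1A1 was at 1.16 and 1.44 FPKM in mimics against 0.242 to 0.682 in OE and NC, COL3A1 at 2.02 and 0.514 against 0.192 to 0.363, and DCN at 4.41 and 3.40 against 2.28 to 3.01. Of the 8 fibroblast markers 4 passed the filter on low values and none was at 0 in all libraries, and the part of these cells or genes in any result below was not tested. In RNA of whole cultures, fewer cells with a transcript and less of it per cell cannot be told apart.

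Mimics replicate 2 stood apart from all other libraries in the mtDNA-encoded transcripts, so mtDNA results of mimics are given for each library. The 13 mtDNA genes took 6.23% and 0.533% of summed FPKM in mimics, 9.67% and 9.49% in OE and 9.14% and 8.29% in NC. The 98 nuclear members together took 2.52% and 2.75% in mimics, 2.57% and 2.62% in OE and 2.51% and 2.54% in NC. Thus the mtDNA share was far lower in a single mimics library and somewhat lower in the other, while the nuclear share stayed within a narrow band in all 6.

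Complex IV, cytochrome c oxidase, holds the most abundant mtDNA transcripts. MT-CO1, the catalytic subunit that reduces oxygen, was at 6085 and 345 FPKM in mimics, 8719 and 8651 in OE and 8653 and 8502 in NC. MT-CO2, which takes electrons from cytochrome c, was at 4466 and 262 FPKM in mimics, 5469 and 5615 in OE and 5037 and 4721 in NC. MT-CO3, the remaining mtDNA core subunit, was at 2632 and 187 FPKM in mimics, 3646 and 3865 in OE and 3524 and 3352 in NC. For all 3 genes, mimics replicate 1 lay under every OE and NC library, and mimics replicate 2 lay more than an order of magnitude under it.

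MT-CYB, the cytochrome b of complex III and its only mtDNA subunit, was at 1977 and 128 FPKM in mimics, 2387 and 2453 in OE and 2301 and 2346 in NC. In complex I, MT-ND4 of the proton-pumping membrane arm was at 2558 and 234 FPKM in mimics, 3779 and 3728 in OE and 3552 and 3157 in NC. MT-ND1, which lies at the quinone site, was at 802 and 81.9 FPKM in mimics, 1357 and 1361 in OE and 1250 and 1193 in NC. These genes followed the same order of libraries as complex IV. The membrane arm genes MT-ND2, MT-ND4L and MT-ND5 lay at 74.3% to 80.9% of the NC mean in mimics replicate 1, at 5.33% to 8.89% in mimics replicate 2 and at 105% to 120% in OE.

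The exception to this order was MT-ND3. This gene, the shortest complex I gene on this genome apart from MT-ND4L, was at 336 and 19.6 FPKM in mimics, 301 and 331 in OE and 292 and 286 in NC. It was thus the only one of the 13 that stood above the NC mean in mimics replicate 1, at 116%, and it stood at 6.77% of that mean in mimics replicate 2. MT-ND6, the only one of the 13 mtDNA genes on the minus strand (chrM:14149-14673, GRCh38), was at 474 and 93.7 FPKM in mimics, 702 and 666 in OE and 647 and 523 in NC. It kept the largest fraction of the NC mean in mimics replicate 2, at 16.0%. Whether the counting used strand is not given in the sources used here, so reads from MT-ND6 and from transcripts opposite to it cannot be told apart.

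In complex V, MT-ATP6, which forms part of the proton channel, was at 1728 and 174 FPKM in mimics, 3896 and 3867 in OE and 3315 and 3049 in NC. MT-ATP8, a small subunit that joins it in the membrane, was at 1297 and 256 FPKM in mimics, 2849 and 2915 in OE and 2344 and 2131 in NC. In mimics replicate 1 these were the lowest of the 13, at 54.3% and 58.0% of the NC mean, whereas in mimics replicate 2 they lay at 5.48% and 11.5%. The genes lie on a shared transcript and overlap by 46 bases, and MT-ND4L and MT-ND4 overlap by 7 bases, so fragments there cannot be assigned to a single gene. The overlaps are shown as the stretches that the genes of each pair share. How far they tie the values of a pair together was not tested. They are from the GENCODE 29 transcripts (GRCh38, plus strand), with the start codon of the second gene and the last bases of the first in capitals, at chrM:8527-8572 for MT-ATP8 and MT-ATP6 and, with flanking bases, at chrM:10745-10781 for MT-ND4L and MT-ND4.
MT-ATP8 and MT-ATP6: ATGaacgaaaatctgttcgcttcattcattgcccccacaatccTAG
MT-ND4L and MT-ND4: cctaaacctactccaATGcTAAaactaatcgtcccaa

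**Figure D1:**
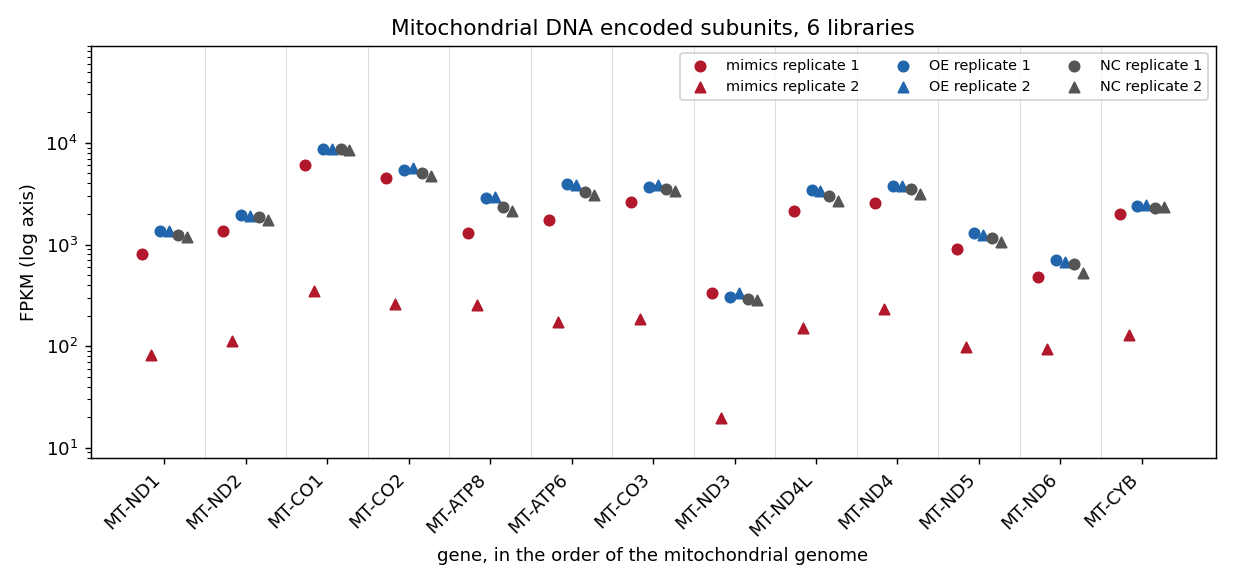
FPKM (log axis) of the 13 mtDNA-encoded genes, in the order of the mitochondrial genome, with a point for each of the 6 libraries (circle for replicate 1, triangle for replicate 2; red mimics, blue OE, grey NC). Mimics replicate 2 lies at 4.02% (MT-CO1) to 16.0% (MT-ND6) of the NC mean, and mimics replicate 1 at 54.3% (MT-ATP6) to 116% (MT-ND3).

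The make-up of the mtDNA transcripts also differed between libraries, as a share of their own summed FPKM, which is free of the library total. MT-CO1 made up 22.8% and 16.1% of it in mimics, 21.9% and 21.6% in OE and 23.4% and 24.4% in NC. MT-ATP8 made up 4.85% and 11.9% in mimics, 7.16% and 7.29% in OE and 6.34% and 6.13% in NC. MT-ND6 made up 1.77% and 4.37% in mimics, 1.76% and 1.67% in OE and 1.75% and 1.5% in NC. The 13 genes were therefore not lower by a common factor in mimics replicate 2: MT-CO1 had a smaller share there than in any other library, and MT-ATP8 and MT-ND6 had larger ones.

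Limma was fitted to log2(FPKM + 0.5) across the 13998 rows that averaged 0.5 FPKM or more, in all 6 libraries together, and a difference passed at a Benjamini-Hochberg adjusted p under 0.05. On this scale the differences understate changes of genes with low FPKM. For mimics against NC, limma called 8% of all tested rows, 4.29% higher and 3.71% lower. It called 0 of 13 mtDNA genes, although 11 of 13 had an unadjusted p under 0.05, as did 25.8% of all tested rows. Their log2 differences ran from -2.56 for MT-CO1 (95% interval -4.88 to -0.25, adjusted p = 0.155) to -1.46 for MT-ND6 (-2.78 to -0.15, adjusted p = 0.154), with a median of -2.21. All tested rows together had a median of -0.0021. The smallest adjusted p was 0.0763, for MT-ATP8 at -1.95 (-3.28 to -0.62).

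The mimics libraries differed widely from each other in these genes. On the log2 scale replicate 2 minus replicate 1 of mimics was -4.14 for MT-CO1, -3.57 for the median gene and -2.33 for MT-ND6. The same difference had a median of -0.01 in OE and -0.09 in NC over the 13 genes. Of 14 tested rows in the whole table that were lower by 3 or more in mimics replicate 2, 11 were mtDNA genes and 0 were nuclear members. Of the 622 other rows with an NC mean of at least 100 FPKM, 2 lay under 25% of that mean in mimics replicate 2, against 13 of 13 mtDNA genes. Both of those rows are new genes of the authors' table with no symbol, at 16.8% and 22.0%. Their location in the genome was not examined, so whether they come from mtDNA was not tested.

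The calls depended on which mimics library was left in. Without mimics replicate 2, 3 of 13 genes passed in limma, against 21.7% of all rows in that fit, with MT-ATP6 at -0.88 (adjusted p = 0.0101), MT-ATP8 at -0.78 (adjusted p = 0.0120) and MT-ND1 at -0.61 (adjusted p = 0.0172). MT-ND3 was then at 0.22 (adjusted p = 0.205). Without mimics replicate 1, all 13 passed, from -4.63 for MT-CO1 to -2.63 for MT-ND6, against 9.59% of all rows. In these fits the remaining mimics library is taken to vary as the OE and NC libraries do. Counted by position instead, both mimics libraries lay below both NC libraries for 12 of 13 mtDNA genes, all but MT-ND3, against a background of 25.6% of tested rows. Both lay above NC for 0 of 13, against 27.2% of tested rows.

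In OE against NC the mtDNA genes were close to the control. OE replicates 1 and 2 lay at 102% to 127% and 101% to 130% of the NC mean, with MT-CO1 lowest and MT-ATP8 highest in both. Limma called 0 of 13, against 0.257% of all tested rows, 0.0143% higher and 0.243% lower. At an unadjusted p under 0.05 there were 0 of 13, against 6.48% of all tested rows. The median difference of the 13 was 0.16 on the log2 scale, and MT-ATP8 stood at 0.37 (95% interval -0.96 to 1.70, adjusted p = 0.998). The shared estimate of spread in this fit includes the gap between the mimics libraries. With only the OE and NC libraries MT-ATP8 still did not pass (adjusted p = 0.321). Both OE libraries lay above both NC libraries for 12 of 13 genes, all but MT-CO1, against 15.4% of tested rows, and below for 0 of 13, against 26.5%.

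Set directly against OE, mimics had a negative log2 difference in all 13 mtDNA genes. The median was -2.32, and 12 of 13 had an unadjusted p under 0.05, as did 26.5% of all tested rows. Limma called 7.84% of tested rows in this comparison, 5.32% higher and 2.52% lower in mimics, and 1 of 13 mtDNA genes. MT-ATP8 fell by 2.32 on the log2 scale (95% interval -3.65 to -0.99, adjusted p = 0.0471). That call was lost when any of the OE or NC libraries was left out. It was also lost with no filter on low values and with libraries scaled to equal medians. The same held with the replicate number in the model and with only the mimics and OE libraries fitted. Without mimics replicate 2, 7 genes passed, against 19.9% of all rows in that fit, from MT-ATP6 at -1.17 (adjusted p = 0.00363) to MT-ND5 at -0.49 (adjusted p = 0.0435), and MT-ND3 stood at 0.0899.

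Setting the mtDNA subunits against nuclear subunits of the same complex in the same library cancels the library total. The measure was the mean log2 value of the mtDNA genes minus that of the nuclear structural subunits. Assembly factors, paralogues and readthrough rows were left out, and CYC1, the cytochrome c1 of complex III, is not named by the rule. For complex I (7 mtDNA and 37 nuclear genes) it was 3.81 and 0.40 in mimics, 4.29 and 4.22 in OE and 4.25 and 4.03 in NC. For complex III (1 and 8 genes) it was 4.45 and 0.52 in mimics, 4.85 and 4.80 in OE and 4.84 and 4.82 in NC. In both complexes mimics replicate 1 was under every OE and NC library. Mimics replicate 2 was much closer to equality, with the mtDNA side still above the nuclear one. Complex IV (3 and 11 genes) gave 4.31 and 0.28 in mimics, 4.80 and 4.74 in OE and 4.82 and 4.61 in NC.

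Complex V (2 and 17 genes) gave 3.41 and 0.63 in mimics, 4.62 and 4.60 in OE and 4.45 and 4.31 in NC. In mimics replicate 1 it differed from the NC mean by -0.97, the widest gap of the 4 complexes, against -0.33 in complex I, -0.38 in complex III and -0.40 in complex IV. Averaged over both mimics libraries the ratio differed from NC by -2.03 in complex I, -2.34 in complex III, -2.42 in complex IV and -2.36 in complex V. The nuclear side alone differed by 0.02, 0.14, 0.07 and 0.12 in the same complexes, and by -0.06 in complex II. Unlike the ratio, the nuclear side alone is not free of the library total. These ratios describe each library and were not tested. Members were chosen with earlier results known, and a permutation of 2 libraries against 2 cannot reach a p below 0.05.

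**Figure D2:**
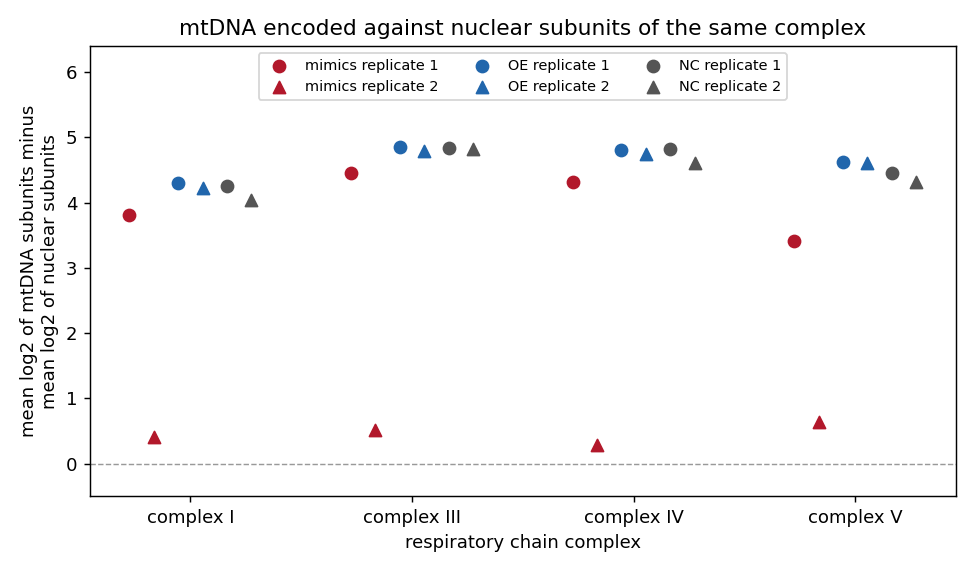
Mean log2(FPKM + 0.5) of the mtDNA subunits minus that of the nuclear structural subunits of the same complex, for each of the 6 libraries (circle for replicate 1, triangle for replicate 2; red mimics, blue OE, grey NC; dashed line at equality). Mimics replicate 2 lies at 0.28 to 0.63, mimics replicate 1 at 3.41 to 4.45 and the OE and NC libraries at 4.03 to 4.85.

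The order of genes within a complex showed the same gap. In mimics replicate 1 and in all OE and NC libraries, 0 nuclear structural subunits had a higher FPKM than any mtDNA gene of their complex. In mimics replicate 2, 36 of the 37 nuclear complex I subunits were above MT-ND3 and 15 were above MT-ND1, while only NDUFB4 was above MT-ND4. In complex III, 2 of the 8 nuclear subunits found by the rule were above MT-CYB there. CYC1, which the rule does not name, was at 278 FPKM in that library and so also above MT-CYB. In complex IV 3 of 11 were above MT-CO1, and in complex V 7 of 17 were above MT-ATP6.

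The nuclear genes are taken next, by role. In limma 1 of 89 tested nuclear members passed in mimics against NC, which was higher, and 0 were lower, with a median log2 difference of 0.05. The count at an unadjusted p under 0.05 was 10 of 89, against 25.8% of all tested rows. In OE against NC 0 of 89 passed, with 4 at an unadjusted p under 0.05, against 6.48% of all tested rows, and a median of 0.04. In mimics against OE 1 of 89 passed, again higher. Both mimics counts are smaller shares than the background of 8% against NC and 7.84% against OE. The comparisons with NC share its libraries.

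By position, both mimics libraries lay above both NC libraries for 35 of 89 nuclear members and below for 13 of 89. Both OE libraries lay above NC for 33 of 89 and below for 7 of 89. These are 39.3% and 14.6% in mimics, against 27.2% and 25.6% of tested rows, and 37.1% and 7.87% in OE, against 15.4% and 26.5%. The differences behind them were small: 84 of 89 members in mimics replicate 1 and 86 of 89 in mimics replicate 2 lay within 0.5 log2 of the NC mean, as did 88 of 89 in each OE library. FPKM divides by the library total, so the lower mtDNA share of mimics raises nuclear values there. With libraries rescaled without the mtDNA genes, the median difference from NC over every row was -0.088 in mimics, against -0.0021 before. The positions and the nuclear median of 0.05 were not recomputed on that scale. The direction of the small nuclear shift in mimics may therefore depend on the scaling.

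**Figure D3:**
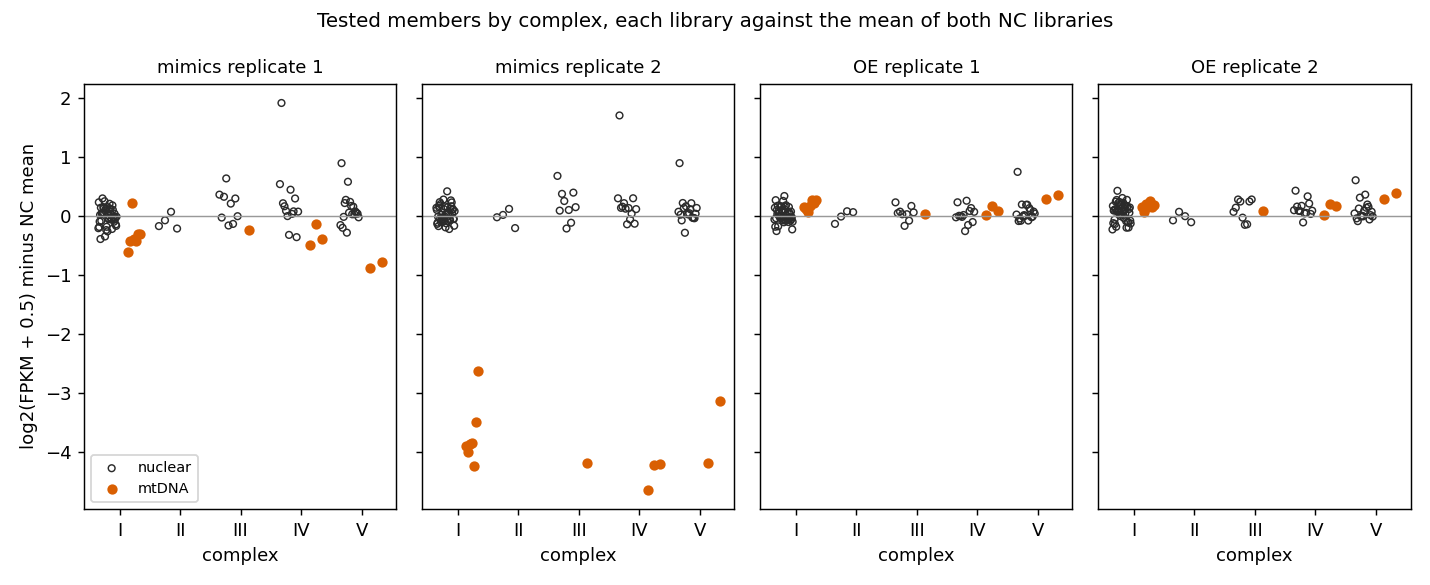
Log2(FPKM + 0.5) minus the mean of both NC libraries for each tested member, by complex (horizontal axis), in a panel for each mimics and OE library. Open black circles are nuclear members and filled orange circles mtDNA genes. In mimics replicate 2 all mtDNA genes lie below -2, while most nuclear members spread around 0 in all panels. NDUFA4L2 stands off near the top of both mimics panels. ATP5F1A stands off in all panels, at 0.89 and 0.90 in mimics and 0.75 and 0.61 in OE.

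The nuclear member that passed was NDUFA4L2 (ENSG00000185633), at chr12:57234903-57240715 on the minus strand of GRCh38. It encodes a paralogue of NDUFA4 known to be induced in low oxygen. NDUFA4L2 was at 9.36 and 8.02 FPKM in mimics, 2.58 and 3.02 in OE and 1.77 and 2.53 in NC. It rose in mimics against NC by 1.81 on the log2 scale (SE 0.18, 95% interval 1.39 to 2.22, adjusted p = 0.00187) and against OE by 1.48 (1.06 to 1.89, adjusted p = 0.00357). Both mimics libraries lay far above all others. The difference in OE against NC was 0.33 (-0.08 to 0.74, adjusted p = 0.901).

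NDUFA4 itself, the complex IV subunit, was at 97.2 and 100.1 FPKM in mimics, 96.9 and 98.2 in OE and 90.7 and 93.9 in NC, a difference of 0.10 in mimics against NC (adjusted p = 0.567). NDUFA4L2 thus made up 8.79% and 7.42% of the sum of the pair in mimics, 2.59% and 2.99% in OE and 1.91% and 2.62% in NC. Exons of NDUFA4L2 overlap those of SHMT2, a mitochondrial enzyme of serine metabolism on the opposite strand. SHMT2 was at 166.5 and 132.2 FPKM in mimics, 145.7 and 176.2 in OE and 137.5 and 179.3 in NC (adjusted p = 0.804 for mimics against NC). The strand setting of the counting is not given, so fragments of either gene in the overlap cannot be told apart. A part of SHMT2 in the NDUFA4L2 values was not tested.

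The catalytic core of nuclear complex I includes the subunits NDUFS1, NDUFS3, NDUFS7, NDUFS8, NDUFV1 and NDUFV2. NDUFV1, which binds the flavin that accepts electrons from NADH, was at 152 and 152 FPKM in mimics, 146 and 161 in OE and 161 and 180 in NC. NDUFS1, the largest subunit, was at 24.4 and 26.9 FPKM in mimics, 26.6 and 24.1 in OE and 25.4 and 26.8 in NC. None of these 6 passed in any comparison, and their log2 differences in mimics against NC ran from -0.17 for NDUFV1 to 0.035 for NDUFV2.

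Across all 45 tested nuclear complex I members, assembly factors included, 0 passed in limma in mimics against NC and 0 had an unadjusted p under 0.05, against 8% and 25.8% of all tested rows. The accessory subunit NDUFA11 had the smallest adjusted p of complex I in mimics against NC, at 0.25 (adjusted p = 0.201). NDUFB2, another accessory subunit, was at 126 and 132 FPKM in mimics, 164 and 160 in OE and 126 and 134 in NC. Both OE libraries stood above the other 4, and the differences were 0.32 in OE against NC (adjusted p = 0.547) and -0.33 in mimics against OE (adjusted p = 0.0813). The difference from OE passed once libraries were rescaled without the mtDNA genes, at -0.42 (adjusted p = 0.0335). Of the 8 NDUFAF assembly factors 0 passed. The lowest against NC was NDUFAF6, at 8.84 and 10.4 FPKM in mimics, 9.76 and 11.2 in OE and 12.4 and 11.1 in NC.

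All 4 genes of complex II, succinate dehydrogenase, are nuclear. SDHA, the flavoprotein that oxidises succinate, was at 85.3 and 94.7 FPKM in mimics, 87.6 and 91.3 in OE and 89.8 and 103 in NC. SDHB, the iron-sulfur subunit, was at 88.5 and 94.3 FPKM in mimics, 92.5 and 97.8 in OE and 86.9 and 99.6 in NC. SDHC, a membrane anchor, was at 28.1 and 29.1 FPKM in mimics, 28.3 and 26.7 in OE and 25.9 and 27.6 in NC. The groups overlapped for SDHA and SDHB, and both mimics libraries were above NC for SDHC. SDHD, the other anchor, was at 88.2 and 88.6 FPKM in mimics, 107 and 94.95 in OE and 97.7 and 107 in NC, with both mimics libraries below the rest but no call (-0.21 against NC, adjusted p = 0.257).

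In complex III 4 of 9 nuclear members had an unadjusted p under 0.05 in mimics against NC, against 25.8% of all tested rows, and 0 passed. UQCR11, a small accessory subunit, was at 70.5 and 73.0 FPKM in mimics, 59.1 and 68.3 in OE and 54.9 and 57.5 in NC, a difference of 0.35 in mimics against NC (adjusted p = 0.0775). UQCRH, the hinge protein that meets cytochrome c1, was at 222 and 238 FPKM in mimics, 204 and 215 in OE and 188 and 174 in NC, a difference of 0.35 (adjusted p = 0.0882). In both genes the mimics libraries were highest, the NC libraries lowest and OE between them. UQCRHL, an intronless near copy of UQCRH, was at 1.38 to 2.77 FPKM, and fragments may be split between these.

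UQCRB, which helps bind ubiquinone, was at 48.2 and 36.9 FPKM in mimics, 31.5 and 36.6 in OE and 31.4 and 30.3 in NC, a difference of 0.45 in mimics against NC (adjusted p = 0.0882). It was among the 3 nuclear members that were lowest in mimics replicate 2 relative to mimics replicate 1, with ATP5MC2 and NDUFA5. Without mimics replicate 2 its difference was 0.64 and passed (adjusted p = 0.00850), and without mimics replicate 1 it was 0.25 and did not (adjusted p = 0.209). The core proteins UQCRC1 and UQCRC2 and the Rieske protein UQCRFS1, which carries the iron-sulfur centre, gave -0.19, 0.16 and -0.12 in mimics against NC, with adjusted p of 0.332 to 0.479.

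In nuclear complex IV the large regulatory subunit COX4I1 was at 492 and 466 FPKM in mimics, 424 and 473 in OE and 403 and 445 in NC (0.18 in mimics against NC, adjusted p = 0.427). COX5A and COX5B, accessory subunits on the matrix side, gave 0.16 and 0.15 (adjusted p = 0.376 and 0.432). COX6B1, which joins the monomers of the enzyme, was at 132 and 149 FPKM in mimics, 138 and 153 in OE and 134 and 202 in NC. Here a single NC library stood above the other 5. The difference between the NC replicates, 0.60 on the log2 scale, was larger than in 97.5% of tested rows.

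The tissue isoforms of complex IV were almost all in the widely expressed form. COX4I2, COX6A2 and COX7B2 were listed at 0 in all 6 libraries, and COX6B2, COX7A1 and COX8C did not exceed 0.557 FPKM in any, so they failed the filter. Their counterparts COX4I1, COX6A1, COX7A2, COX7B and COX8A were at 138.5 FPKM or more in every library. COX6B1, the counterpart of COX6B2, was at 132 to 202 FPKM. The other 3 members that failed the filter were the readthrough rows NDUFC2-KCTD14 and ATP5MF-PTCD1 and the paralogue ATP5MGL.

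COX7A2L is a relative of COX7A2 that joins complexes III and IV into supercomplexes. It was at 39.2 and 33.1 FPKM in mimics, 26.4 and 28.7 in OE and 26.8 and 26.8 in NC. The mimics libraries were above the rest, but the difference of 0.42 from NC (SE 0.11, 95% interval 0.16 to 0.68) did not pass (adjusted p = 0.0565). Without mimics replicate 2 it did, at 0.54 (adjusted p = 0.00977), and without mimics replicate 1 it stood at 0.30 (adjusted p = 0.108). COX7A2 was at 183 and 172 FPKM in mimics, 161 and 185 in OE and 167 and 191 in NC, and its groups overlapped.

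In complex V the catalytic beta subunit ATP5F1B was the most abundant nuclear member, at 941 and 1098 FPKM in mimics, 1019 and 1051 in OE and 1023 and 1141 in NC (-0.09 in mimics against NC, adjusted p = 0.772). The alpha subunit ATP5F1A was at 597 and 598 FPKM in mimics, 539 and 489 in OE and 484 and 213 in NC. NC replicate 2 stood apart there: the NC replicates differed by -1.19 on the log2 scale, more than in 99.7% of tested rows. The difference in mimics against NC was 0.89 (95% interval 0.19 to 1.60, adjusted p = 0.113) with both NC libraries and 1.49 (adjusted p = 0.0247) with NC replicate 2 alone. With NC replicate 1 alone it was 0.30 (adjusted p = 0.400). ATP5F1A overlaps HAUS1 on the opposite strand, which was at 27.3 and 29.2 FPKM in mimics, 37.5 and 34.1 in OE and 30.8 and 32.7 in NC.

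The ring of c subunits in complex V is encoded by 3 genes with the same mature peptide. ATP5MC1 was at 199.7 and 199.4 FPKM in mimics, 242 and 242 in OE and 239 and 247 in NC, a difference of -0.28 in mimics against NC (adjusted p = 0.132). ATP5MC2 was at 394 and 296 FPKM in mimics, 267 and 265 in OE and 242 and 287 in NC (0.37, adjusted p = 0.1804). It stood at 0.58 and passed without mimics replicate 2 (adjusted p = 0.0171), and at 0.165 without mimics replicate 1 (adjusted p = 0.460). ATP5MC3 was at 32.6 to 34.3 FPKM in all libraries. The share of ATP5MC2 in their sum was 62.8% and 55.9% in mimics, 49.3% and 49.1% in OE and 47.2% and 50.6% in NC. Both mimics libraries were above the rest in that share, and ATP5MC1 passed once libraries were rescaled without the mtDNA genes, at -0.38 (adjusted p = 0.0427). ATP5IF1, the inhibitor of the enzyme, gave -0.04 (adjusted p = 0.851), and the accessory subunit ATP5ME had the smallest p of the complex in OE against NC, at 0.28 (adjusted p = 0.679).

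**Figure D4:**
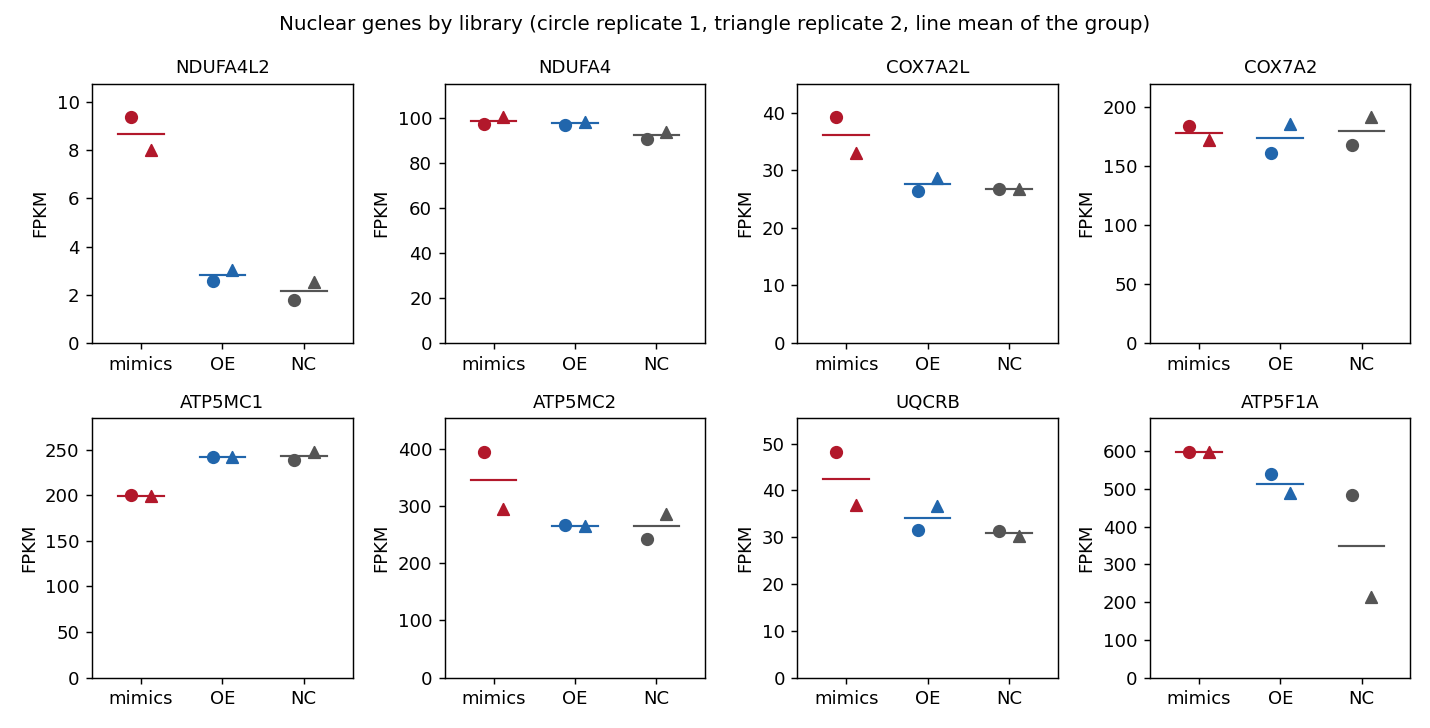
FPKM of 8 nuclear members in each library (linear axes from 0), with mimics, OE and NC from left to right, circles for replicate 1, triangles for replicate 2 and a line at the mean of each group. NDUFA4L2 lies at 8.02 to 9.36 FPKM in mimics against 1.77 to 3.02 in OE and NC, while its paralogue NDUFA4 lies at 90.7 to 100.1 in all groups, and ATP5F1A shows a single low NC library at 213.

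FPKM, a level per length, also varied among subunits of the same complex. NC means of nuclear structural genes ran from 14.5 FPKM for NDUFA9 to 218 for NDUFB4 in complex I, with a median of 66.3, and from 92.3 for NDUFA4 to 445 for COX8A in complex IV, with a median of 179. In complex V they ran from 20.5 for ATP5F1E to 1082 for ATP5F1B. All 13 mtDNA genes lay above the nuclear structural genes of their complex in NC.

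The genes that read, process and stabilise mtDNA transcripts were listed separately. In limma 1 of 35 tested passed in mimics against NC and 0 in OE against NC and in mimics against OE, with medians of -0.09, 0.03 and -0.08 on the log2 scale. The shares of all tested rows called were 8%, 0.257% and 7.84% in these comparisons. TFB1M, which methylates the small mitochondrial ribosomal RNA, was at 10.4 and 9.38 FPKM in mimics, 7.79 and 7.88 in OE and 6.36 and 6.99 in NC, and rose against NC by 0.54 (adjusted p = 0.0338). TFAM, the factor that packages mtDNA and starts its transcription, was at 5.72 and 4.90 FPKM in mimics, 7.53 and 7.22 in OE and 7.77 and 6.34 in NC. Both mimics libraries were below the rest, without passing (-0.38 against NC, adjusted p = 0.149). POLRMT, the mitochondrial RNA polymerase, was at 35.0 and 42.5 FPKM in mimics, 36.9 and 41.1 in OE and 34.0 and 38.5 in NC. LRPPRC and SLIRP form the complex that holds mtDNA messengers stable, and MTPAP adds their tails. LRPPRC gave 0.24 in mimics against NC, SLIRP 0.11 and MTPAP -0.18, with adjusted p of 0.229 to 0.580.

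Among nuclear regulators of respiratory genes, 0 of 13 tested passed against NC in either group and 1 of 13 passed in mimics against OE, near the background of 7.84%. GABPB1, the partner of GABPA in a factor that binds many of these promoters, was at 8.70 and 8.78 FPKM in mimics, 14.5 and 11.4 in OE and 12.6 and 11.5 in NC, and fell by 0.53 in mimics against OE (adjusted p = 0.048). NRF1, the nuclear respiratory factor, was at 7.99 and 9.16 FPKM in mimics, 9.33 and 10.2 in OE and 9.85 and 11.4 in NC (-0.29 in mimics against NC, adjusted p = 0.1995). PPARGC1A, a coactivator of the program, did not exceed 0.01 FPKM.

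Promoters were searched for letters that these factors are known to bind, in 250 bases before to 50 after each start in RefSeq (GRCh38.p14), on both strands. The letters GCGCANGCG (NRF1) were present in 35.5% of 62 nuclear structural members with an entry, against 17.6% of 9770 tested genes and 9.02% of 27305 genes in all. CCGGAAG (GABP) was present in 32.3%, against 23.1% and 12.2%. AAGATGGC (YY1) was present in 19.4%, against 6.71% and 3.52%. These shares describe letters and not binding. Stretches of the promoters of SDHD (chr11:112086758-112086808, plus strand) and UQCR11 (chr19:1605476-1605565, minus strand) are shown because each holds both the NRF1 and the GABP letters, in capitals, on either strand.
SDHD: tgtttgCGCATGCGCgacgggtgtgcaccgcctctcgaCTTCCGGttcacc
UQCR11: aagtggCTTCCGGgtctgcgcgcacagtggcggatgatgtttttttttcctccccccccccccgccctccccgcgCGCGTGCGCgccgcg

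Assembly factors named outside the rule gave 1 higher and 1 lower of 42 tested in mimics against NC, 0 in OE against NC and 2 higher in mimics against OE. Of all tested rows 4.29% were higher and 3.71% lower in mimics against NC, and 5.32% were higher in mimics against OE. SDHAF4, which helps insert the flavoprotein of complex II, was at 10.9 and 10.4 FPKM in mimics, 5.53 and 5.27 in OE and 6.24 and 5.97 in NC, and rose by 0.76 against NC (adjusted p = 0.00938) and by 0.92 against OE (adjusted p = 0.0046). FOXRED1, a complex I assembly factor, was at 51.0 and 67.2 FPKM in mimics, 74.6 and 76.7 in OE and 81.5 and 87.8 in NC, and fell by 0.53 against NC (adjusted p = 0.0489). SURF1, an assembly factor of complex IV, was at 42.8 and 41.7 FPKM in mimics, 30.3 and 32.9 in OE and 33.1 and 35.1 in NC, and rose by 0.41 against OE (adjusted p = 0.0383) but did not pass against NC (0.30, adjusted p = 0.0947).

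Of the electron carriers and other donors to the chain, 0 were higher and 2 of 18 tested lower in mimics, both against NC and against OE, and 0 passed in OE against NC. The background of lower calls was 3.71% against NC and 2.52% against OE. Both belong to the synthesis of ubiquinone, the mobile carrier that takes electrons to complex III, as do most genes of this list. The other genes of that synthesis did not pass and went both ways in mimics against NC. COQ5 gave 0.21, COQ8A 0.19, COQ8B 0.16 and COQ9 0.06. COQ6 gave -0.07, PDSS2 -0.09, COQ4 -0.12, COQ3 -0.26 and COQ7 -0.35. COQ2, which joins the ring to its tail, was at 9.16 and 9.43 FPKM in mimics, 14.99 and 14.3 in OE and 16.7 and 17.3 in NC, and fell by 0.84 against NC (adjusted p = 0.004) and by 0.63 against OE (adjusted p = 0.0123). PDSS1, part of the enzyme that makes the tail, was at 8.57 and 9.30 FPKM in mimics, 12.9 and 11.9 in OE and 12.9 and 13.2 in NC, and fell by 0.52 against NC (adjusted p = 0.0268) and by 0.45 against OE (adjusted p = 0.0444). Both mimics libraries lay below all others in either gene. The carrier cytochrome c, from CYCS, gave -0.12 and the complex III cytochrome c1, from CYC1, -0.19 in mimics against NC (adjusted p = 0.499 and 0.381).

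The nuclear members were also read for the seed of the microRNA. The mature sequence of RefSeq is shown with its seed, bases 2 to 8, in capitals.
hsa-miR-106a-5p: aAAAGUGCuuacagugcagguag
The complementary letters GCACTTT were looked for in the longest annotated 3′ UTR of each gene (GENCODE 29). They were present in 13 of 89 tested nuclear members (14.6%), against 24.6% of 12258 tested genes, and the members had shorter 3′ UTRs, with a median of 451 bases against 1310. The median log2 difference of these members in mimics against NC was 0.02 with a match and 0.05 without. Over all tested genes it was 0.00245 with a match and -0.00514 without. NDUFA4L2 held no match. Of 13 nuclear members, tested or not, whose surroundings were read, 8 had the letters ctgtaat shortly before the first match. COX7A2L, NDUFB6, UQCRFS1, NDUFAF5 and COX8C did not. NDUFAF5 stood at 0.0036 in mimics against NC, and COX8C failed the filter on low values. The matches of COX7A2L, NDUFB6 and UQCRFS1 are shown, with the seed match in capitals, because their neighbouring bases are unlike each other.
COX7A2L: tgtttagtgttGCACTTTagactggtgtc
NDUFB6: agcaattccatGCACTTTtgttttaagga
UQCRFS1: acagtcactcaGCACTTTtcactgtaaga
In mimics against NC the log2 difference was 0.42 for COX7A2L, -0.06 for NDUFB6 and -0.12 for UQCRFS1, and none passed. A match is a description of letters and shows no targeting.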

How the data were processed

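RNA was sequenced from 6 libraries of 22RV1 cells on day 2 (mimics, OE and NC, 2 each). Per the submitters' processing notes, HISAT2 2.0.4 and the build GRCh38 were used. The sources used here do not give the counter, its annotation or its strand setting. The authors deposited FPKM per gene and library, with no read counts. Depth could not be recovered: among single-exon genes the most frequent low value was shared by only 8 to 15 genes per library (tolerance 0.3%). FPKM divides by each library's total, so a lower mtDNA share raises all other values of that library. The table holds no row of mitochondrial ribosomal or transfer RNA and none of the 394 nuclear pseudogenes of mtDNA protein genes in GENCODE 29.

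Rows that averaged 0.5 FPKM or more were tested with limma 3.58.1 (R 4.3.3, intensity trend) on log2(FPKM + 0.5), with all 6 libraries in 1 model (3 residual and 5.67 prior degrees of freedom), two-sided, with Benjamini-Hochberg adjustment over 13998 rows and a threshold of 0.05. The script was tested on simulated data. All 111 member IDs were found in GENCODE 29, from which locations, overlaps and 3′ UTRs were taken. Promoters and the microRNA came from RefSeq. Members and lists were chosen with earlier results of these data known.

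Named genes were the mtDNA genes, nuclear core subunits, isoform pairs, the largest passing changes (or smallest p) per complex and comparison, the nuclear members that differed most between the mimics libraries, and the leading genes of each list. Some values that this rule names are not reported here. Alternatives covered the pseudocount, the filter, 3 scalings, the libraries fitted, the replicate number and leaving out each library.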

Additional observations from a re-analysis of the deposited data

How the results depend on the processing

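The counts of calls moved with the settings. In mimics against NC 97 rows passed with no filter on low values and 618 with only the 4 libraries compared, against 1120, and 65 to 3018 when a library was left out. The count of nuclear members was then 0 with no filter, 2 with libraries scaled without the mtDNA genes, 2 with quantile normalization and 1 to 6 when a library was left out. For mtDNA genes it was 1 with quantile normalization (MT-ATP8) and 0 to 13 when a library was left out. In OE against NC 7 rows passed with no filter, 9 with the replicate block and 120 with only the 4 libraries, against 36, and 5 to 121 when a library was left out, with 0 members throughout. In mimics against OE 137 rows passed with no filter and 654 with only the 4 libraries, against 1098, and 136 to 2765 when a library was left out. Nuclear members were 0 with no filter, 3 scaled without mtDNA, 2 with quantile normalization (NDUFB2 at -0.32) and 1 to 6 when a library was left out. For mtDNA genes the count was 0 with no filter, with equal medians, with the replicate block and with only the 4 libraries, and 0 to 13 when a library was left out. MT-ND3 ran from -3.85 to 0.22 against NC and from -3.98 to 0.0899 against OE when a mimics library was left out, and was positive without mimics replicate 2. NDUFA4L2 passed against NC and OE in every setting but the one with no filter (adjusted p = 0.0748 and 0.0888). The ratios by complex in mimics against NC kept their direction under all 6 alternatives. Their size came mostly from mimics replicate 2, at -4.43 to -3.74 from the NC mean, against -0.97 to -0.33 in mimics replicate 1. In OE against NC the complex III ratio differed by -0.007, too little to hold a direction. Scaling without mtDNA moved the median of all rows in mimics against NC to -0.09.

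Replicate numbers are shared between groups, but only 2 numbers exist. Same-numbered deviations correlated at 0.153 for OE and NC, -0.0268 for mimics and NC and 0.0194 for mimics and OE. These values cannot tell whether same-numbered libraries share more than a number. With the replicate block 938 rows passed in mimics against NC, and NDUFA4L2 stood at 1.81 (adjusted p = 0.0104).

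With 2 libraries a group and no counts, precision rests on the spread between libraries alone. No mtDNA value of mimics can be given a narrow error while those libraries differ as they do, and no cause of their difference was tested.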
